A study of Mus musculus with 24 samples.

Results

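The 6 genes described here, Fos, Fosb, Fosl2, Jun, Junb and Jund, encode subunits of the transcription factor AP-1. They were chosen by name among the 15232 genes of an expression table from mouse anterior cingulate cortex, and all 6 passed the filter for testing (a mean of at least 1 FPKM). The cingulate cortex is a frontal area studied here for effort in goal-directed action. Bulk polyadenylated RNA of 24 mice was sequenced, 1 library per animal. By their labels 8 animals were wild type (WT) and untrained, 8 carried a knockout of Thbs1 and Thbs2 (KO) and were untrained, and 8 were KO animals trained in an operant chamber, with 4 females and 4 males in each of the 3 arms. None of the 24 animals was both WT and trained, so a training difference in WT animals could not be measured. The labels give neither a strain nor an age, and they do not say which cells lost the thrombospondins or how. Training came with food deprivation, so the 2 cannot be told apart, and RNA was taken no more than 1 hour after the behavioural session ended. When the untrained animals were sampled is not given in the labels.

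AP-1 is a dimer. A Fos protein must pair with a Jun protein to bind DNA, while Jun proteins can also pair with each other or with factors of the Atf and Maf families. Fos, Fosb and Junb are immediate-early genes, transcribed within minutes of neuronal activity through calcium and MAP kinase signalling that acts on CREB and serum response factor at their promoters, and Fos is widely used as a marker of recently active neurons. Fosl2 encodes the Fos-related protein Fra-2. Jun encodes the subunit that c-Jun N-terminal kinases phosphorylate, and Jund is usually expressed at a steadier level. Fosb also gives a truncated, long-lived protein, DeltaFosB, through splicing, and values per gene cannot separate the 2 forms.

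The levels of the targeted genes ran against the labelled genotypes. Thbs1 stood at 0.25 to 0.72 FPKM (a read count divided by gene length and library size) in the 8 libraries labelled WT, and at 2.77 to 5.91 in the 16 labelled KO. Thbs2 was 2.02 ± 0.29 (SD, n = 8) in libraries labelled WT, 3.51 ± 0.38 in untrained libraries labelled KO and 3.29 ± 0.23 in trained ones. Genotypes are therefore given as labelled throughout, and every difference between KO and WT takes its sign from those labels. Knockout alleles that still give transcript and labels exchanged between the arms cannot be told apart from these values. All 8 trained animals, 2 untrained KO males and 1 untrained WT male had animal numbers over 1000, and the other 13 animals had numbers under 1000. Untrained KO male 3 stood apart in its tissue markers, in that 10 cortical excitatory neuron markers summed to 295 FPKM where the 8 WT libraries spanned 809 to 1003 and the trained ones 864 to 1069, and 10 striatal markers summed to 554 while the WT and trained libraries reached at most 341. Whole reads recovered from the values gave 12320942 to 27158934 reads per library, and Fos rested on 450 to 2211 of them. In bulk tissue, fewer cells of a type and less RNA per cell cannot be told apart.

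Promoters are shown for the 3 Fos-family genes, which held all the members' calls between arms, for Junb, which varied most closely with Fos, and for Jun, which varied least, from 130 bases before to 20 bases after the RefSeq start (GRCm38.p6), 5′ to 3′ on the gene's strand. Capitals mark TGACG, the core of the cyclic AMP response element, TATAAA, and TGACATCA, a variant of the AP-1 and CRE sites.
Fos (chr12:85473760-85473909, plus strand): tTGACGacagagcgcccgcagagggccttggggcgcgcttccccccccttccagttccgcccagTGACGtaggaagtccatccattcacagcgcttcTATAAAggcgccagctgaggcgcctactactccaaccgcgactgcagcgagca
Fosb (chr7:19310026-19310175, minus strand): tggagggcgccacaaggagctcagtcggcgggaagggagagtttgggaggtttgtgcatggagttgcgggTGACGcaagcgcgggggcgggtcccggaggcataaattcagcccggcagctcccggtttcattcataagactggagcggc
Fosl2 (chr5:32136342-32136491, plus strand): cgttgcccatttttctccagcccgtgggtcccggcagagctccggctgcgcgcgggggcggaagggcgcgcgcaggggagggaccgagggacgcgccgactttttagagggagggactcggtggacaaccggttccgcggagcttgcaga
Junb (chr8:84978729-84978878, minus strand): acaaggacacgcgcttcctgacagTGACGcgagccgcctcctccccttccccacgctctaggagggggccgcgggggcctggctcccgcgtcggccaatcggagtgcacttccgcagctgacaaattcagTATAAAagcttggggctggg
Jun (chr4:95052203-95052352, minus strand): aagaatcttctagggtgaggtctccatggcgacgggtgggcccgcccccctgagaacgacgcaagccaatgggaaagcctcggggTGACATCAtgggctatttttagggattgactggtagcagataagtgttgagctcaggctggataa

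TGACG was found on either strand of the 300 bases from 250 before to 50 after the start in 3 of the 6 members, and in 20.8% of 32851 mouse promoters of that length. In Fos it began at -129 and -66, in Fosb at -60 and in Junb at -106, with the RefSeq start counted as 1. TATAAA, found in 13.6% of promoters, began at -33 in Fos and at the annotated start in Junb. TGACATCA began at -45 in Jun and was held by 3.62% of promoters. Of the other motifs searched, GGGCGG (a GC box, 35.7% of promoters) was found in 4 of the 6, Fos, Fosb, Fosl2 and Jun, while the full palindrome TGACGTCA (1.79%), which contains TGACG, the AP-1 site TGACTCA (5.2%) and the CArG box bound by serum response factor (1.63%) were found in none of the 6 windows. The window of Fosl2 thus held only the GC box, and that of Jund (chr8:70697489-70697788) held none of the letters searched. A match here describes letters and not a used site, and letters beyond the window were not searched.

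FPKM values are scaled to gene length, but not to GC content, and levels are set side by side between members with that limit. Transcripts of Junb and Jund were at 62.6% and 67.1% GC, and those of the other members at 53.6% to 56.2%. The part of GC content in the order of levels was not tested. In the untrained WT libraries the order was Fos at 29.0 ± 9.44 FPKM (SD, n = 8), Junb at 19.7 ± 7.30, Fosl2 at 8.67 ± 1.89, Jund at 8.62 ± 1.66, Jun at 7.62 ± 1.09 and Fosb at 5.81 ± 1.15. Fos was above Junb in 8 of 8 WT libraries and Jun above Fosb in 8 of 8, whereas Fosl2 was above Jund in 5 of 8, so the middle of this order did not separate. Fos and Junb kept the first and second place in all 3 arms, with Fos above Junb in 8 of 8 libraries of each. Fosb had the lowest mean in the untrained KO arm too, at 7.36 FPKM against 7.51 for Jun, but it was below Jun in only 4 of 8 of those libraries. In the trained KO libraries, where it averaged 10.3 ± 1.71, its mean was above those of Jund and Jun, and it was above Jund in 7 of 8.

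**Figure D1:**
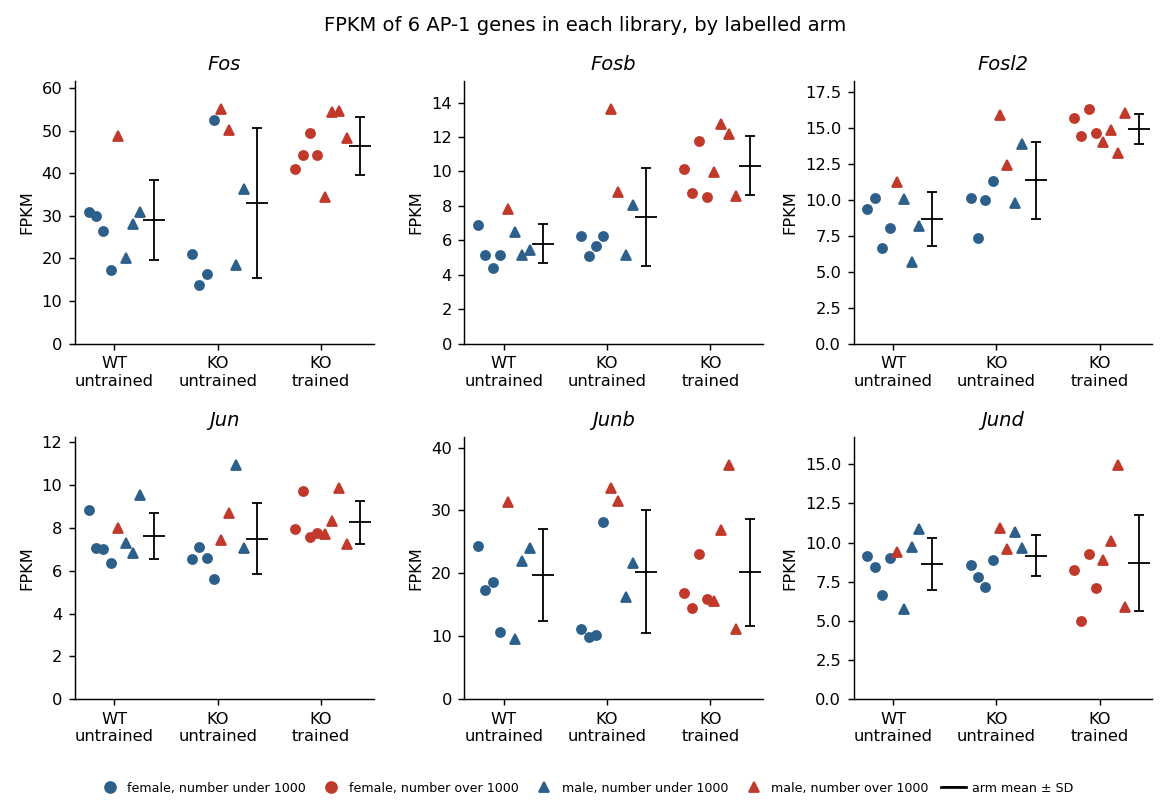
FPKM (vertical axes, each from 0) of the 6 AP-1 genes in each library of the 3 labelled arms, with circles for females, triangles for males, red for animal numbers over 1000 and blue for numbers under 1000; black bars give the arm mean ± SD (n = 8). All 8 trained libraries lie above the untrained WT libraries for Fosb and Fosl2, while Jun, Junb and Jund overlap in all arms. How many of all genes separate these arms was not counted.

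The first comparison asked how the training history of the KO animals was reflected in AP-1 transcripts. In trained against untrained KO libraries, 2 of the 6 genes rose, Fosb and Fosl2, and none fell. Across all 12572 genes tested, 5.67% were called in limma on log2(FPKM + 1) with sex as a covariate (Benjamini-Hochberg adjusted p under 0.05), and 3.5% were called higher.

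Fos ranged from 13.7 to 55.1 FPKM in the 8 untrained KO libraries (median 28.6) and from 34.3 to 54.7 in the 8 trained ones (median 46.3). The untrained libraries split into 4 at 13.7 to 21.0 FPKM and 4 at 36.2 to 55.1, so the arms overlapped over the whole trained range, although 8 of 8 trained libraries were above the untrained mean of 32.9. The difference on the log2(FPKM + 1) scale was 0.65 (SE 0.25, limma adjusted p = 0.124) and did not pass.

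Fosb ranged from 5.07 to 13.6 FPKM (median 6.26) in untrained KO libraries and from 8.50 to 12.7 (median 10.1) in trained ones. Only 2 untrained libraries, male 1 at 13.6 and male 2 at 8.82, reached the trained range, and both came from animals numbered over 1000. The rise was 0.48 (SE 0.14, limma adjusted p = 0.0494), close to the threshold.

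Fosl2 lay within a narrow range among trained animals, at 13.3 to 16.3 FPKM (median 14.8), against 7.34 to 15.9 (median 10.7) in untrained KO libraries. Here too the highest untrained library, male 1 at 15.9, came from an animal over 1000, while the next, male 4 at 13.9, came from an animal under 1000. Fosl2 rose by 0.39 (SE 0.10, limma adjusted p = 0.0348).

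The Jun side of the dimer did not pass. Jun was 7.51 ± 1.64 FPKM in untrained and 8.27 ± 0.99 in trained KO libraries (SD, n = 8 each), a difference of 0.14 with a 95% interval of -0.06 to 0.33 (limma adjusted p = 0.379). Junb was 20.3 ± 9.84 and 20.2 ± 8.54 FPKM, a difference of 0.05 whose interval, -0.49 to 0.58, was as wide as that of Fos (adjusted p = 0.935). Jund was 9.16 ± 1.31 and 8.69 ± 3.08 FPKM, a difference of -0.12 with an interval of -0.40 to 0.17 (adjusted p = 0.628). The lowest and the highest Jund values of all 24 libraries, 5.01 FPKM in female 2 and 14.98 in male 3, were both in the trained arm.

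The calls of Fosb and Fosl2 lay near the threshold. With each library left out in turn, Fosb stayed under the threshold only without untrained male 1 (adjusted p = 0.00635) and without trained male 4 (0.0288), and in the other 14 of 16 fits it was between 0.0553 and 0.0972. Fosl2 passed in 10 of 16 fits. It was lost without trained female 1 (0.0754), female 2 (0.0641), female 3 (0.0664) or female 4 (0.0615), and without untrained female 1 (0.0699) or female 3 (0.0616). Without untrained male 3, the library with low cortical markers, the difference of Fosb was 0.40 (adjusted p = 0.0553) and that of Fosl2 0.36 (0.0421). Without a sex covariate neither passed (0.0835 and 0.0501), and Fosb missed the threshold with libraries scaled to equal sums (0.0538) or with no filter on low values (0.0588).

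Animal number moved with training, since all trained animals were numbered over 1000. With number over or under 1000 as a covariate, the training difference of Fos was -0.13 (95% interval -0.88 to 0.62), of Fosb -0.03 (-0.41 to 0.34), of Fosl2 0.11 (-0.22 to 0.43), of Jun 0.11, of Junb -0.59 and of Jund -0.11. None of the 6 passed in limma, where 0 genes of the whole table did and 1306 had an unadjusted p under 0.05. Training and number cannot be told apart over the whole arm, because only 2 of the 8 untrained KO animals shared the trained animals' number range.

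Those 2 were males, so trained and untrained KO males over 1000 could be compared within the range (4 against 2). Of the 6 members 0 were called, against 0.0% of all genes, with 1320 genes at an unadjusted p under 0.05, and limma-voom on recovered reads also called 0 (1271 unadjusted). Fos was at 34.3, 48.3, 54.4 and 54.7 FPKM in the trained males and at 50.1 and 55.1 in the untrained ones, a difference of -0.15 with a 95% interval of -0.55 to 0.24. That interval overlaps the one over the whole arms, 0.13 to 1.18. Fosb (8.55 to 12.7 against 8.82 and 13.6 FPKM) differed by -0.03, with an interval of -0.46 to 0.40. Fosl2 (13.3 to 16.1 against 12.5 and 15.9) differed by 0.04, with an interval of -0.22 to 0.30 that overlaps the 0.18 to 0.61 of the whole arms. Whether the differences in these males differ from those over the whole arms was not tested.

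Junb gave the largest difference of the 6 in these males, -0.64, from 11.2, 15.6, 26.9 and 37.3 FPKM in the trained males against 31.6 and 33.6, but its interval ran from -1.53 to 0.25 (limma adjusted p = 0.579), and with 1 library left out it was between -0.91 (without trained male 3) and -0.36 (without trained male 4). Jun (0.03) and Jund (-0.10) did not pass either, with adjusted p of 0.945 and 0.908. Among animals under 1000 there were no trained ones, so no training value exists there.

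**Figure D2:**
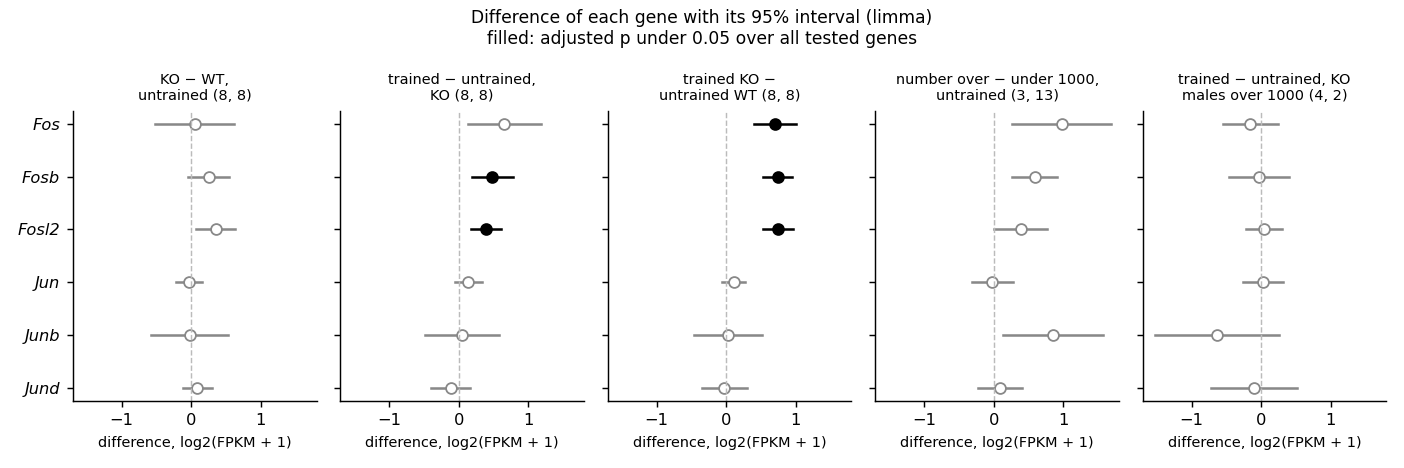
Difference of each gene on the log2(FPKM + 1) scale (horizontal axes) with its 95% interval in 5 comparisons, library numbers in parentheses; filled points passed an adjusted p of 0.05 over all genes tested. Fosb and Fosl2 pass in the training comparison and Fos, Fosb and Fosl2 in trained KO against untrained WT, while in males over 1000 the Fos-family points lie between -0.15 and 0.04.

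Animal number was then compared among the untrained animals alone (3 over 1000 against 13 under, with arm and sex as covariates). Again 0 of the 6 members were called, with 0.0% of all genes, while 1134 genes had an unadjusted p under 0.05. limma-voom likewise called 0 (1283 unadjusted). All 3 animals over 1000 had Fos above the trained median of 46.3 FPKM. The values were 48.8, 50.1 and 55.1 FPKM over 1000 and 13.7 to 52.5 (median 26.4) under 1000, with 12 of the 13 lower than all 3, and the exception was untrained KO female 4 at 52.5. The difference was 0.98 (95% interval 0.27 to 1.68, limma adjusted p = 0.471).

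Junb was at 31.4, 31.6 and 33.6 FPKM in the 3 animals over 1000, above all 13 under 1000 (9.49 to 28.1, median 17.4). Its difference of 0.85 (0.13 to 1.57, limma adjusted p = 0.504) did not pass over all genes. How many of all genes separated the 3 animals from the 13 was not counted. Fosb differed by 0.59 (0.26 to 0.91, adjusted p = 0.456), from 7.84, 8.82 and 13.6 FPKM against 4.38 to 8.02. Fosl2 differed by 0.39 (0.0040 to 0.77, adjusted p = 0.552), from 11.2, 12.5 and 15.9 FPKM against 5.66 to 13.9. Jun (-0.02) and Jund (0.09) had intervals that spanned 0. With males alone (3 against 5) the differences of the 6 kept their sign, at 0.95 for Fos, 0.57 for Fosb, 0.35 for Fosl2, 0.79 for Junb, 0.06 for Jund and -0.05 for Jun, and 0 genes passed in limma, with 718 at an unadjusted p under 0.05.

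The animal numbers fall into runs, and the level of Fos divided between the first run and the later ones. The 11 animals numbered under 500, 7 WT and 4 KO and all untrained, had Fos at 13.7 to 30.9 FPKM (median 21.0). The 2 untrained KO animals numbered between 600 and 700, male 4 and female 4, had 36.2 and 52.5 FPKM. Untrained KO male 1, numbered between 2000 and 2100, had 55.1, and the 6 trained animals between 2500 and 2600 had 34.3 to 54.7 (median 46.9). The 2 trained animals between 3000 and 3100 had 48.3 and 44.3, and the 2 untrained males between 3300 and 3400, 1 KO and 1 WT, had 50.1 and 48.8. Every animal numbered 600 or higher, 13 in all and 5 of them untrained, was thus above all 11 animals of the first run.

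Fosl2 showed the same division, with at most 10.1 FPKM in the first run and at least 11.2 in the 13 others. Fosb did so in 12 of the 13, the exception being untrained KO female 4 at 6.26 against a maximum of 6.86 in the first run. Junb exceeded the first run's maximum of 24.3 FPKM in 6 of 13, Jund in 2 and Jun in 0. Of all 12572 genes tested, 9 (0.0716%) had all 13 later animals above the first run. Besides the 2 members, Egr1 was the single such gene among 19 other immediate-early genes. This division was drawn, and Egr1 named, after the values had been seen, so the counts describe it and are no test.

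**Figure D3:**
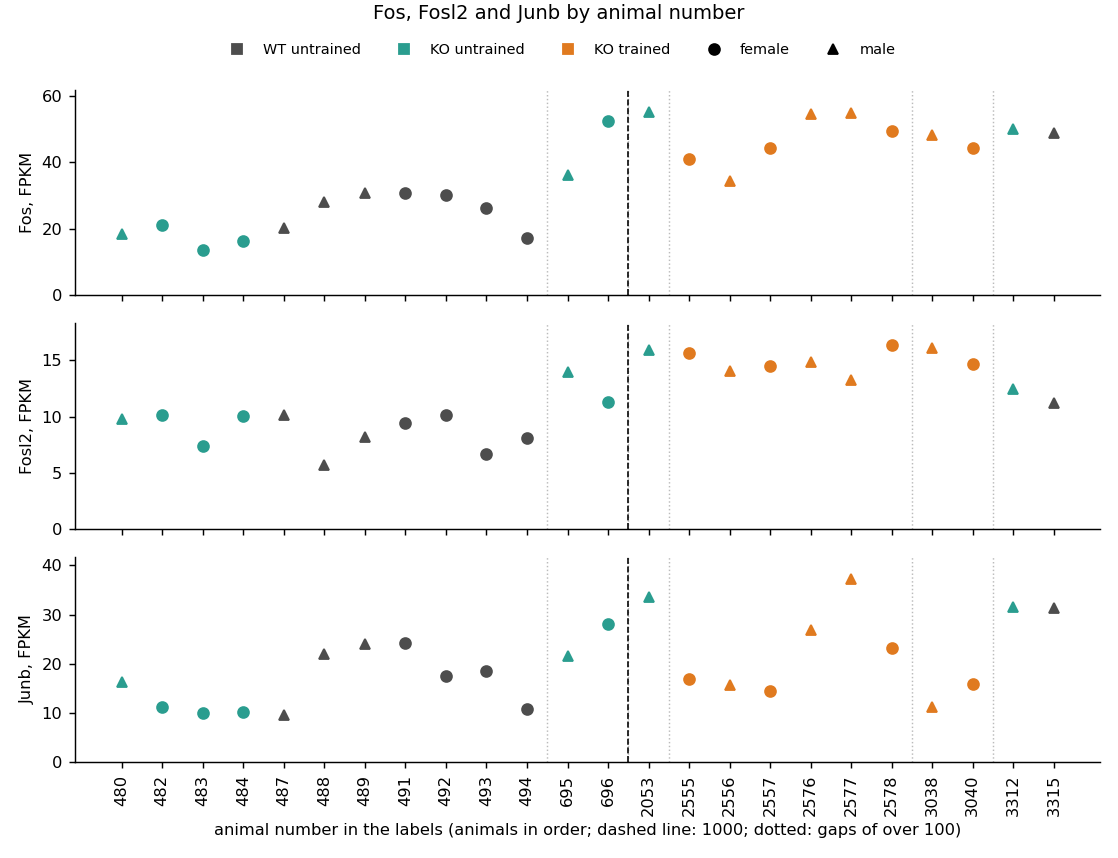
FPKM (vertical axes, from 0) of Fos, Fosl2 and Junb in the 24 animals in order of animal number (horizontal axis, not to scale), coloured by labelled arm, with circles for females and triangles for males; dotted lines mark gaps of over 100 numbers and the dashed line marks 1000. Fos and Fosl2 are higher in all 13 animals numbered 600 or higher than in the 11 numbered under 500, whereas Junb ranges from 11.2 to 37.3 among the trained animals.

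The genotype comparison, untrained KO against untrained WT, asked about the labelled knockout without training. None of the 6 members was called, where 1.42% of all genes were. Fosl2 came nearest, at 8.67 ± 1.89 FPKM in WT and 11.4 ± 2.68 in KO libraries (SD, n = 8 each), a difference of 0.35 (95% interval 0.07 to 0.63, limma adjusted p = 0.267). Fosb differed by 0.25 (-0.04 to 0.55, adjusted p = 0.484), and by 0.14 without untrained KO male 1. Fos differed by 0.05, but its interval of -0.53 to 0.62 was wide, and the KO libraries spread more (SD 17.6 FPKM) than the WT libraries (9.44). Jun (-0.03), Junb (-0.02) and Jund (0.09) had adjusted p of 0.922, 0.984 and 0.774. Within the run of animals under 500, the 4 KO animals had Fos at 13.7, 16.5, 18.4 and 21.0 FPKM and the 7 WT animals at 17.2 to 30.9, and Junb was at 9.92, 10.1, 11.2 and 16.2 in the KO animals and 9.49 to 24.3 in the WT animals. Fosl2 was at 7.34 to 10.1 FPKM in the 4 KO animals of this run and 5.66 to 10.1 in the 7 WT animals. All of these genes overlapped between the labels there, and the 4 KO animals with high Fos were those numbered 600 or higher. Fosl2 in those animals was 11.3, 12.5, 13.9 and 15.9 FPKM, above the whole run under 500. With number over or under 1000 as a covariate, Fosl2 differed by 0.30 (limma adjusted p = 0.283). The part of the runs in its difference was not tested.

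Trained KO against untrained WT libraries differ in both labels and, for 7 of the 8 WT animals, in number range. Here 3 of the 6 members were called, all higher and all of the Fos family, where 24.5% of genes were called and 12.9% were called higher. Fosb was at 4.38 to 7.84 FPKM in WT (median 5.29) and 8.50 to 12.7 in trained KO libraries, without overlap, a rise of 0.74 (SE 0.10, limma adjusted p = 7.01e-05). Fosl2 was at 5.66 to 11.2 FPKM (median 8.78) against 13.3 to 16.3, also without overlap, a rise of 0.74 (SE 0.10, limma adjusted p = 7.93e-05). How many of all genes separated these arms without overlap was not counted. Fos was at 17.2 to 48.8 FPKM (median 29.0) against 34.3 to 54.7 and rose by 0.70 (SE 0.15, adjusted p = 0.00268), with a single WT library, male 1 of an animal over 1000, inside the trained range.

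These 3 calls held with each library left out. With animal number as a covariate Fos was at -0.06, Fosb at 0.39 (adjusted p = 0.534) and Fosl2 at 0.33 (0.607), and none passed among the 22 genes that did. Jun (0.11), Junb (0.03) and Jund (-0.03) did not pass, with adjusted p of 0.318, 0.944 and 0.911. Of 50 tested cell-type markers 10 were called in this comparison (20%), a share near the 24.5% of all genes. Of 10 cortical excitatory markers 3 were higher, among them Lamp5 and Neurod6, as were 2 of 6 inhibitory markers (Pvalb and Sst), 1 of 6 endothelial (Ly6c1) and 1 of 6 microglial (Tmem119), while 2 microglial (P2ry12 and Cx3cr1) and 1 of 6 astrocyte markers (Slc1a3) were lower. Their part in the members' differences was not tested. The comparison shares its trained libraries with the training comparison and its WT libraries with the genotype comparison.

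The makeup of the family was described by shares. Fos-family genes made up 54.8 ± 4.21% of the members' summed FPKM in WT, 57.2 ± 5.42% in untrained KO and 66.4 ± 5.36% in trained KO libraries (SD, n = 8 each). The sums themselves averaged 79.5, 88.6 and 108.8 FPKM. In the 3 untrained animals over 1000 the sum was 124.8 ± 10.4 FPKM (SD, n = 3), above the trained mean, but the Fos-family share was 59.7 ± 2.00%. The ratio of Fos to Junb was 1.56 to 1.64 in the 3 untrained animals over 1000 and 1.47 to 4.33 (median 2.31) in the trained animals, against medians of 1.49 in WT and 1.63 in untrained KO libraries. The highest ratio, 4.33, was in trained male 4, with Fos at 48.3 and Junb at 11.2 FPKM. These shares were not tested.

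Over all 24 libraries, male and female libraries were compared with arm as a covariate. None of the 6 members passed, where 28.6% of all genes did, although all 6 averages were higher in males. Junb was 23.4 ± 9.05 FPKM in males and 16.7 ± 5.99 in females (SD, n = 12 each), a difference of 0.43 (limma adjusted p = 0.132), and Fos differed by 0.34 (0.193). Fosb differed by 0.26 (0.0686), Jund by 0.24 (0.105), Jun by 0.15 (0.137) and Fosl2 by 0.11 (0.412). With the correction for GC content and length the differences were 0.27 for Junb, 0.22 for Fos, 0.18 for Fosb, 0.096 for Jund, 0.073 for Fosl2 and 0.072 for Jun, and none passed in limma (adjusted p from 0.357 to 0.716). With that correction 455 of 12118 genes were called for sex, against 3595 of 12572 without it. In the uncorrected limma fits Fosb passed without trained female 3 (adjusted p = 0.0422), trained male 4 (0.0342), untrained KO male 3 (0.0180) or WT female 1 (0.0419). Junb passed there without WT male 2 (0.0419), and Jund without trained male 4 (0.0300) or WT male 2 (0.0287). All 3 untrained animals over 1000 were male, and with number as a covariate the differences of Fos and Junb were 0.09 and 0.22.

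The members varied between animals of the same arm and sex more than most genes did. After the mean of each arm and sex was removed, the standard deviation on the log2(FPKM + 1) scale was 0.58 for Junb, 0.53 for Fos, 0.30 for Jund, 0.28 for Fosb, 0.24 for Fosl2 and 0.18 for Jun, where the median of all genes tested was 0.12. Junb and Fos lay at percentiles 99.5 and 99.3 of that distribution and Jun at 79.8. Junb and Jund are also very rich in G and C, with transcripts at 62.6% and 67.1% GC, percentiles 99.0 and 99.9. With a correction for GC content and length the standard deviation became 0.50 for Junb and 0.22 for Jund, and 0.51 for Fos. The arms also mixed runs of animal numbers, and offsets between runs stay in this spread because only arm and sex means were removed. The part of GC content in this spread was not tested further, and that of the runs was not tested.

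Which members varied together was tested on the same deviations, over 15 pairs with 100000 permutations within arm and sex and 2-sided p adjusted over the pairs. Fos and Junb went together most closely (Pearson r = 0.820, permutation p = 3e-05, adjusted 0.00045, Spearman rho = 0.847, p = 2e-05, adjusted 0.0003, n = 24). Without the 2 libraries farthest from the median of Fos r was 0.777 (permutation adjusted p = 0.00975). It was 0.897 in the 13 animals under 1000 (permutation adjusted p = 0.0099) and 0.671 in the 11 over 1000 (permutation adjusted p = 0.406). The difference between the 2 number ranges was not tested. The means removed were those of the whole arm and sex. Offsets between number ranges or runs thus stay in every r and its permutation p, over all 24 libraries as well as by number range. Their part in r was not tested. The animals under 1000 also include the first run and the animals numbered between 600 and 700.

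The pairs Junb and Jund, Fosb and Fosl2, Fos and Fosb, and Fosb and Junb also passed over all libraries, and each lost its call without the 2 farthest libraries. Junb and Jund had r = 0.666 (rho = 0.640, permutation adjusted p = 0.0116 and 0.0204), and 0.625 without those 2 (permutation adjusted p = 0.0769). Both genes are very rich in G and C, and all pairs were computed without the GC and length correction. The part of GC content in r was not tested. For this pair r was 0.834 in animals over 1000 (permutation adjusted p = 0.0130, n = 11) and 0.538 under 1000 (0.350, n = 13). Fosb and Fosl2 had r = 0.665 (rho = 0.642, permutation adjusted p = 0.0116 and 0.0204), with 0.560 without 2 (permutation adjusted p = 0.0769), 0.736 under 1000 (0.0190) and 0.569 over 1000 (0.552). Fos and Fosb had r = 0.600 (rho = 0.549, permutation adjusted p = 0.0173 and 0.0403), with 0.548 without 2, 0.529 under and 0.689 over 1000. Fosb and Junb had r = 0.560 (rho = 0.602, permutation adjusted p = 0.0173 and 0.0267), with 0.535 without 2, 0.300 under and 0.782 over 1000.

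Fos and Fosl2 did not pass (r = 0.539, permutation adjusted p = 0.0947), although both followed the animal-number runs. Fosb and Jund had r = 0.342 (permutation adjusted p = 0.168), and 0.611 over 1000 (permutation adjusted p = 0.0455). The 5 pairs with Jun had r of -0.278 to 0.232, and none passed. The highest value of Jun, 10.96 FPKM, was in untrained KO male 3, the library with the low cortical markers.

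**Figure D4:**
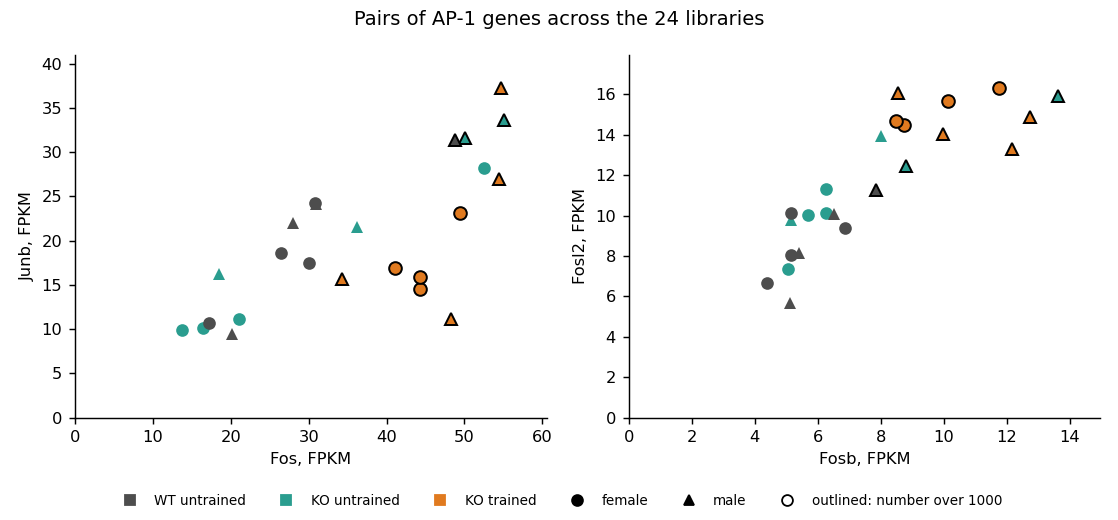
FPKM of Fos against Junb (left) and of Fosb against Fosl2 (right) in the 24 libraries, coloured by labelled arm, with circles for females, triangles for males and a black outline for animal numbers over 1000. The untrained libraries form a narrow band of Fos against Junb, with ratios of 1.14 to 2.13, while the trained libraries spread from 1.47 to 4.33.

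The genes whose levels were most like each member were named by Pearson r of log2(FPKM + 1) over the 24 libraries, which share arms, sexes and number runs. For Fos they were Nr4a1 (r = 0.955), Egr2 (0.937) and Npas4 (0.929), which are immediate-early transcription factors, and the same 3 genes led after arm and sex means were removed (0.961, 0.924 and 0.919). For Fosl2 they were the orphan nuclear receptor gene Nr4a2 (0.911), Dffa (0.899) and Nr4a3 (0.893), and after removal of means Frmd6 (0.826), Nr4a3 (0.822) and Fbxo33 (0.820). For Fosb they were Fosl2 itself (0.868), Cuta (0.851) and Bcat2 (0.851), and after removal Nop9 (0.880), Coq10b (0.817) and Dusp14 (0.813).

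The Jun genes had other neighbours. Junb went with the kinase gene Pim3 (0.861), Vps37b (0.857) and the immediate-early gene Ier2 (0.832), and after removal of means with Med25 (0.907), Ntmt1 (0.892) and Zfp13 (0.890). Jund went with Mif (0.917), H1fx (0.912) and Sssca1 (0.909), and after removal with Sssca1 (0.945), Mif (0.929) and Emc10 (0.913). Jun went with Matn2 (0.831), Cnih2 (0.781) and Cpne6 (0.777), and after removal with Ovca2 (0.808), Matn2 (0.796) and Grin2d (0.777). The neighbours of all members were named from values without the GC and length correction, and the part of GC content was not tested.

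Other genes of the pathway were taken from lists written for this purpose, with earlier results of these data known. The counts of genes called in these lists are thus a description and no test against the share of all genes. Of 19 other immediate-early genes, 6 rose and 0 fell in trained against untrained KO libraries, where 3.5% of all genes were called higher, with a median difference of 0.48 against 0.0065 over all genes tested. They included Nr4a3 (0.56, limma adjusted p = 0.00379), Nr4a2 (0.55, 0.0106) and the zinc-finger factor gene Egr3 (0.63, 0.0189). In trained KO against untrained WT libraries 11 rose and 1 fell, where 12.9% of all genes were called higher, with a median of 0.46 against 0.0032 over all genes: Nr4a3 (0.71), Nr4a2 (0.88) and Egr3 (0.64) led the rises, and Klf10 fell by 0.30. Among untrained animals over against under 1000 the median of the 19 was 0.53 with 0 called, against 0.0089 over all genes, and in males over 1000 trained against untrained it was 0.08 with 0 called, against -0.0022. Their summed FPKM was 598 to 816 in the trained animals, 634 to 788 in the untrained animals over 1000 and 267 to 665 in the untrained animals under 1000.

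Of 20 genes described as AP-1 targets, 16 were tested. In trained against untrained KO libraries 3 rose and 0 fell, against 3.5% of all genes called higher, with a median of 0.14: Inhba, which encodes the activin subunit (0.62, limma adjusted p = 0.00627), Nptx2, a neuronal pentraxin (0.66, 0.0104), and Bdnf, the neurotrophin (0.67, 0.0187). In trained KO against untrained WT libraries 8 rose and 0 fell, against 12.9% of all genes called higher, with a median of 0.21, among them Nptx2 (0.56), Bdnf (0.59) and the secretogranin gene Scg2 (0.31). Between untrained animals over and under 1000 the median of the 16 was -0.0036 with 0 called, unlike the median of 0.53 of the immediate-early list, though the 2 medians were not tested against each other. In males over 1000 it was 0.12 with 0 called.

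Of the 14 genes for other dimer partners 9 were tested, and 1 passed in each of the 2 comparisons with trained animals, Atf4 with training (0.22, limma adjusted p = 0.0232) and Jdp2, which encodes a partner that represses AP-1 sites, against WT (0.31, 0.0158). The list's medians were 0.00054 and -0.060, and 1 of 9 is to be read against 5.67% and 24.5% of all genes called in these comparisons. Of 18 factors and coactivators that act on Fos and Jun promoters, Mef2a fell with training by 0.20 (adjusted p = 0.0423) and none rose, with a median of -0.02. Against WT, Srf, the serum response factor gene (0.28, 0.00105), and Crem (0.34, 0.0128) rose, Mef2a fell by 0.25 (0.000698) and Mef2c by 0.20 (0.0097), and the median was 0.01. These 4 of 18 are a share near the 24.5% of all genes called there.

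Of 24 kinases of the MAP kinase and calcium pathways 0 passed with training (median 0.0076), and against WT 3 rose, Map3k5 (0.19), Map2k3 (0.18) and Mapk14 (0.12), and 4 fell, including Camk4 by 0.34 and Rps6ka5 by 0.18 (median 0.0020), so that 7 of 24 were called, again near the 24.5% of all genes. Of 15 tested genes for turnover and restraint of AP-1, 0 passed with training (median -0.0012) and 5 rose against WT (median 0.0042), where 12.9% of all genes were called higher, among them the phosphatase genes Dusp6 (0.38, limma adjusted p = 0.00138) and Dusp1 (0.43, 0.0252) and the ubiquitin ligase gene Rfwd2 (0.18, 0.00846). No gene of these 6 lists was called for the genotype label, for number in untrained animals or in males over 1000.

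Markers of the tissue's cell types were all detected in every library except those of blood, of which 1 of 5 genes was in the table and was at 0 in at least 1 WT library. With training, 0 of 10 cortical excitatory, 0 of 10 striatal, 0 of 6 inhibitory, 0 of 6 astrocyte, 0 of 6 oligodendrocyte and 0 of 6 microglial markers passed, and 1 of 6 endothelial markers, Ly6c1, rose by 0.49 (limma adjusted p = 0.00763). The median differences in that comparison were 0.27 for the cortical excitatory markers, -0.11 for striatal, -0.08 for inhibitory, -0.16 for astrocyte, 0.23 for oligodendrocyte, -0.04 for microglial and 0.05 for endothelial markers, against 0.0065 over all genes tested. By animal number in untrained animals, where 0 markers passed, the medians were 0.36 for cortical excitatory, -0.35 for striatal and 0.17 for oligodendrocyte markers. Fosl2 differed by 0.39 in each of these comparisons. The sum of the 10 cortical excitatory markers was 864 to 1069 FPKM in trained libraries, 930 to 942 in untrained animals over 1000 and 295 to 1023 in untrained animals under 1000. The summed endothelial markers were 39.2 to 55.3 FPKM in untrained KO and 43.8 to 64.8 in trained libraries. Their part in the members' differences was not tested.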

How the data were processed

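Per the labels' protocols, TRIzol RNA of whole anterior cingulate cortex went into stranded mRNA libraries. The authors deposited FPKM per gene, a value scaled for gene length and library size. FastQC 0.11.7, Trimmomatic 0.38, STAR 2.5.3a, featureCounts and Subread 1.6.3 with build mm10 are named in the submitters' processing notes. How they set library size is not given in the sources used here. Low values of a gene are spaced in steps of 1 read, which gave whole reads for 15230 of 15232 genes (99.99% of values whole within 0.01 read). These reads cover counting error only. That the 8 animals of an arm were independent rests on the labels' animal numbers.

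The 6 members and all gene lists were chosen with earlier results of these data known. Genes averaging 1 FPKM or more over the 24 libraries (12572) entered linear models of log2(FPKM + 1) in limma 3.58.1 (R 4.3.3, eBayes with a trend), and p-values were adjusted over all of them by Benjamini and Hochberg's method (called under 0.05). Each fit held the compared arms alone and adjusted for sex. Number in untrained animals had arm and sex as covariates, and sex had arm. Fold changes on this scale understate those of low genes. The fit was tested on simulated data. Permutations and motif searches were run in Python 3.11.15 with scipy 1.17.1. Promoters are from RefSeq GRCm38.p6, GC content and length from GENCODE M21 (96.4% of tested genes). Named genes are the 6 members, Thbs1 and Thbs2, up to 3 genes per list, comparison and direction past the threshold by smallest adjusted p, and the 3 genes most like each member. Some genes that this rule gives are not reported here.

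Settings tried besides these were no filter, a minimum mean FPKM of 5, a pseudocount of 0.1, median-ratio scaling, equal sums, limma-voom on recovered reads, no sex covariate, animal number as a covariate, GC and length corrected in 20 bins, a replicate block, the libraries of that fit without the block and each library left out.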

Additional observations from a re-analysis of the deposited data

Results flagged for a closer look

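In each arm of 8 libraries, the highest and the lowest value of each member were compared with the nearest other value (36 values in 18 groups, of which chance flags about 1 in 20 groups). Fos in untrained WT male 1, at 48.8 FPKM, stood apart from the other 7 WT libraries, with a gap of 0.567 of the arm's range, above Dixon's 95% critical value for 8 values. Fosb in untrained KO male 1, at 13.6 FPKM, stood apart from the other 7 libraries of its arm, with a gap of 0.561. Both animals were numbered over 1000.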

How the results depend on the processing

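The replicate numbers did not pair the animals: deviations of same-numbered animals had mean correlations of 0.02, -0.07 and -0.10 in the 3 pairs of arms. With a replicate block 114 genes were called for the genotype label (179 without), 29 for training and 1614 for trained KO against WT. The last 2 fits left out trained female 4, whose title has no number, and its partner; on the same 14 libraries without a block, an alternative added after seeing the data, 248 and 2501 genes were called (713 and 3074 on all 16). For training Fosb was at 0.50 on those libraries (adjusted p = 0.198 with the block, 0.105 without) and Fosl2 at 0.40 (0.165 and 0.0811), and against WT Junb was at -0.043 and Jund at 0.012 with and without it. Without a sex covariate the counts were 98 for genotype and 422 for training, and Jun by number was 0.12. With animal number as a covariate they were 0 for training and 22 against WT, with Fos at -0.075 for genotype, Fos, Fosb and Junb at -0.13, -0.030 and -0.59 for training, and Fos and Junb at -0.061 and -0.64 against WT. With the GC and length correction 455 genes were called for sex (3595 without), Jund by number was -0.0059, and in males over 1000 Fosb was 0.064 and Jund 0.023. With voom, Jun and Junb for genotype were 0.0090 and 0.013. With equal sums Junb against WT was -0.012, Jun in males over 1000 was -0.00369 and Fosb for training was 0.45 (adjusted p = 0.0538); without the filter the p of Fosb was 0.0588. Equal sums also moved the split of calls, to 235 higher and 385 lower for training (440 and 273 in the report's fit), 1095 and 2112 against WT (1626 and 1448) and 972 and 2600 for sex (1857 and 1738). The cause was not tested.

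With each library left out, calls ranged from 115 to 340 for genotype (340 without untrained KO male 3, 115 without WT female 3), 330 to 945 for training (330, 332, 408, 433 and 472 without untrained female 1, trained females 1, 2 and 4 and untrained female 4) and 0 to 2 in males over 1000, where a lone untrained male is assumed to vary like the others. Members whose sign turned in some of these fits ranged for genotype from -0.12 to 0.18 (Fos), -0.092 to 0.018 (Jun), -0.20 to 0.080 (Junb) and -0.00052 to 0.12 (Jund), for training from -0.058 to 0.20 (Junb), against WT from -0.13 to 0.15 (Junb) and -0.13 to 0.055 (Jund), by number from -0.079 to 0.12 (Jun) and -0.034 to 0.15 (Jund), and in males over 1000 from -0.32 to 0.26 (Fosb), -0.12 to 0.21 (Fosl2), -0.070 to 0.13 (Jun) and -0.30 to 0.10 (Jund). None of these passed the threshold. Without a turn of sign, Fos and Junb in males over 1000 ranged from -0.22 to -0.0045 and from -0.91 to -0.36, Fosb for genotype from 0.14 to 0.34, Jun for training from 0.091 to 0.20 and against WT from 0.070 to 0.15, Jund for training from -0.21 to -0.025 and Fosl2 by sex from 0.062 to 0.17.

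Among pairs, r with means not removed was 0.206 for Fos and Jun, 0.277 for Fosb and Jun, 0.203 for Fosl2 and Jun, and 0.703 for Fos and Fosl2, which then passed (permutation adjusted p = 0.00051). Without the 2 farthest libraries it was 0.143 for Fos and Jun and 0.247 for Fosb and Jun. It was 0.0770 for Fos and Jun over 1000, and under 1000 it was -0.0457 for Fosb and Jund and -0.0218 for Jun and Junb. The reads behind a member in 1 library went down to 265 for Jund, 272 for Junb, 278 for Fosb and 287 for Jun, and the part of counting error in their spread was not tested.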
